A study of Rattus norvegicus with 8 samples.

Results

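Cycling oligodendrocyte precursors were the dividing glial progenitors captured from contused and sham-operated rat spinal cord. They were chosen by counts of named genes, which are therefore no finding: a cell was taken when it had at least 1000 transcript counts (unique molecular identifiers, UMIs), at most 10% of them on mitochondrial genes, at least 2 UMIs of Ptprz1, at least 2 of Olig1 and Olig2 together, at most 1 of Mag and Mog together, at most 2 of Tyrobp, and at least 3 of Mki67 and Top2a together. Of 68658 cells in the count tables, 57296 passed the limits on UMIs and mitochondrial share, 2745 of these (4.79%) met the precursor criteria, and 1021 precursors were cycling. A further 1220 precursors held no UMI of Mki67 or Top2a and served as the non-cycling cells, and 504 held 1 or 2.

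Female Wistar rats, 8 weeks old, were operated at the T9 level, and cord was taken 7 days later for droplet-based sequencing of transcript 3' ends. Contusion used a 10 g weight falling 12.5 mm (mild), 25 mm (moderate) or 50 mm (severe), whereas the sham group had a laminectomy alone. No transgene or knockout was named for any group. The study's methods name pentobarbital as the anaesthetic and the analgesic buprenorphine and the antibiotic cefazolin as care after surgery, with no group excepted. There were 2 libraries per group. The study counts as many cords as there were libraries, so each library may come from its own rat, but the labels do not say so, and p-values measure the spread between these libraries.

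Oligodendrocyte precursors are resident glia of the adult cord that keep dividing at a low rate and form new myelinating oligodendrocytes after damage. They carry the phosphatase Ptprz1 and the transcription factors Olig1 and Olig2, and they normally leave the cell cycle before they mature. A dividing cell copies its DNA in S phase with the Mcm helicase, polymerases and Pcna, then builds the spindle in G2 and mitosis with kinases such as Plk1 and motors such as Kif11. Mki67 marks cycling cells in general, while the topoisomerase Top2a is most abundant in G2 and mitosis.

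Some libraries stood apart before any result. In sham replicate 1, the neutrophil marker list summed to 60952 counts per 1000000 UMIs (CPM) over all cells, against 226 CPM in sham replicate 2, and only 5 macrophages or microglia were found. The severe libraries had deeper cells and less mitochondrial RNA among cycling precursors than the mild and moderate ones (medians of 28422 and 29511 UMIs, and 2.22% and 1.82% mitochondrial). Sham replicate 1 reached a median of 28193 UMIs and 0.732% mitochondrial over its 9 members, and the mild and moderate libraries lay between 11962 and 17992 UMIs and between 4.41% and 5.20% mitochondrial. A total of 555 of 68095 different barcodes occurred in more than 1 library, but none did so as a cycling precursor in both, and 19 members carried a barcode that another library also held.

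The members were clear of the threshold for the most part. A count of 116 precursors sat at exactly 3 UMIs of Mki67 and Top2a, just inside, and 189 sat at 2 UMIs, just outside, while 556 members (54.5%) had 10 or more. Both genes were detected in 886 members (86.8%), and the median member held 11 UMIs of the pair. Among 3540 mature oligodendrocytes of the same libraries, which do not divide, 27 cells reached 3 UMIs, a share of 0.763% (95% Wilson interval 0.525% to 1.11%) at a median of 13031 UMIs. Intervals on shares cover counting error only. The highest such share was 5.26% (6 of 114 cells) in moderate replicate 2. Members were deeper than the non-cycling cells, with a median of 16522 against 8681 UMIs.

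**Figure D1:**
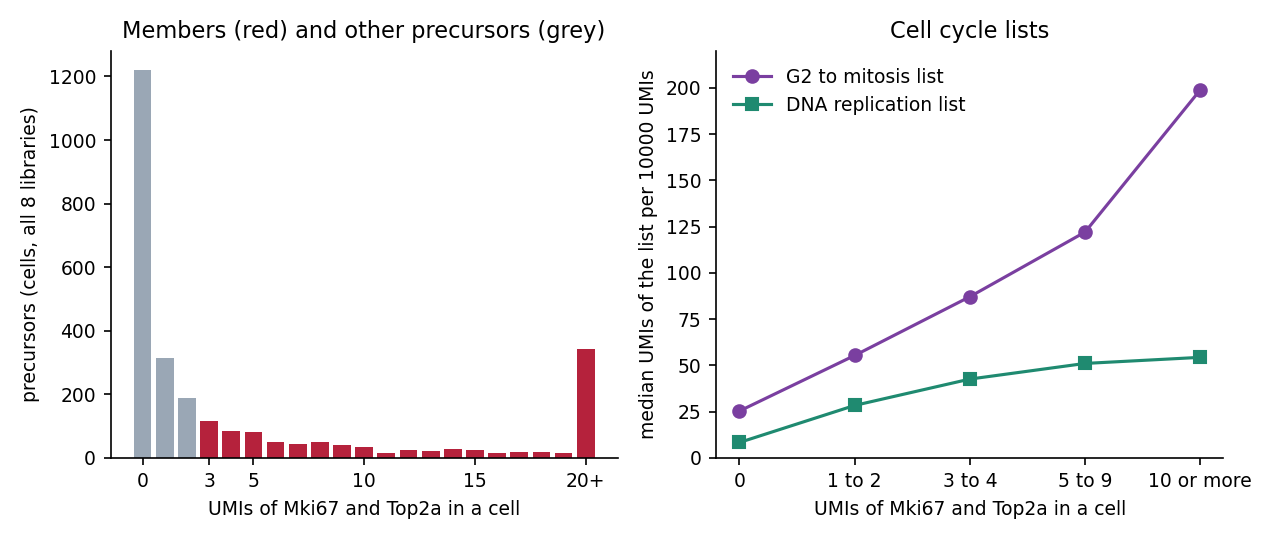
Left, the number of precursors of all 8 libraries by their UMIs of Mki67 and Top2a, with members in red and other precursors in grey (the last bar pools 20 or more). Right, the median UMIs of the G2 to mitosis list and the DNA replication list per 10000 UMIs of a cell, by the same UMIs; the mitosis list climbs from 25.3 to 199 and the replication list levels off at 54.3.

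Members held more transcripts of mitosis than of replication. The G2 to mitosis list had a median of 152 UMIs per 10000 UMIs and the DNA replication list a median of 51.3, and 951 of 1021 members (93.1%) had more UMIs of the former. These lists differ in size and in expression level, so the share does not give the fraction of cells in each phase. Precursors with 1 or 2 UMIs of Mki67 and Top2a, outside the rule, already had 28.3 replication UMIs per 10000, against 8.29 in the non-cycling cells and 42.6 in cells with 3 or 4. Thus the plot of the lists by UMI number showed no step at the threshold of 3. Both chosen genes are cell cycle genes, and the cells were sorted by counts from the same libraries, so this is a description of the choice.

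The share of precursors that were cycling was higher in every injured library than in both sham libraries. It was 13.0% (9 of 69 cells) and 15.8% (12 of 76) in the sham libraries, with Wilson intervals of 7.02% to 23.0% and 9.27% to 25.6%. The mild libraries had 43.3% (120 of 277) and 29.3% (196 of 669). The moderate libraries had 40.7% (221 of 543) and 43.4% (315 of 726). The severe libraries had 43.2% (35 of 81) and 37.2% (113 of 304). The sham and injured values did not overlap, and the mild libraries differed most from each other. By mean and SD (n = 2 each), the share was 14.4% ± 1.94 for sham, 36.3% ± 9.92 for mild, 42.0% ± 1.90 for moderate and 40.2% ± 4.27 for severe injury.

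Injured libraries averaged 39.5% ± 5.56 (SD, n = 6), which was 25.1 percentage points above sham (n = 2). The exact two-sided permutation test gave p = 0.0714, the smallest value that 6 against 2 libraries allow, and 0.107 after Benjamini-Hochberg adjustment over the 3 comparisons of this share, so the difference did not pass 0.05. When cells of at least 3000 UMIs were thinned to that number and called from 1 UMI, the means were 38.5% and 16.4%. Again no sham library reached an injured one. Thinning cells of at least 5000 UMIs to that number, with a call from 2 UMIs, gave 33.2% and 15.2%. Shallower cells were left out of each, so the sham libraries kept 58 of 69 and 74 of 76 precursors at 3000 UMIs. At 5000 UMIs they kept 45 and 61. Over all 8 libraries drop height gave an exact permutation p of 0.153 for Spearman's rho and 0.0357, unadjusted, for Pearson's r, but the sham and injured libraries formed separate clusters, so the pooled relation is not read as one of dose. Within the 6 injured libraries Spearman's rho against drop height was 0 and Pearson's r 0.24 (exact permutation p = 1 and 0.778). This rho moved from -0.598 when cells were thinned to 5000 UMIs to 0.478 with no UMI of Tyrobp, and from -0.58 to 0.316 when 1 injured library was left out, so 6 libraries settle neither a trend nor its absence.

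DNA replication genes were not part of the rule and were summed over all precursors of a library. They reached 3417 and 2001 CPM in the sham libraries, 4482 and 3268 after mild, 3829 and 4188 after moderate, and 3419 and 3649 after severe injury. Sham replicate 2 was the lowest, while sham replicate 1 lay above mild replicate 2, so the groups overlapped. The injured mean of 3806 ± 462 CPM (SD, n = 6) was 1.41 times the sham mean (n = 2), with an exact two-sided permutation p of 0.143.

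**Figure D2:**
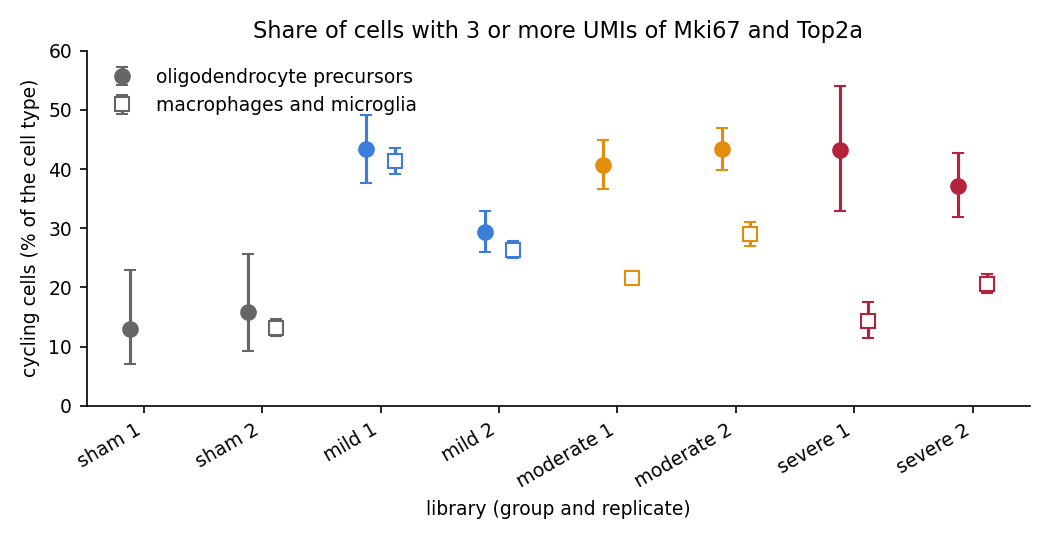
Cycling cells as a percentage of oligodendrocyte precursors (filled circles) and of macrophages and microglia (open squares) in each library, with 95% Wilson intervals; sham replicate 1 had too few macrophages to plot. Precursors lie at 13.0% and 15.8% in sham and between 29.3% and 43.4% in injured libraries, while macrophages and microglia fall to 14.3% and 20.6% in the severe libraries.

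Macrophages and microglia of the same libraries, called cycling by the same 3 UMIs, had a lower share in every library that could be compared. The share among them was 13.2% in sham replicate 2, 41.3% and 26.4% after mild, 21.6% and 29.0% after moderate, and 14.3% and 20.6% after severe injury. The gap was small in sham replicate 2 and the mild libraries and widest in severe replicate 1. On average the share was higher in precursors by 12.4 ± 10.3 points (SD, n = 7), in 7 of 7 libraries (exact two-sided sign-flip permutation p = 0.0156, the smallest that 7 pairs allow; 0.0469 adjusted over 3 comparisons). This call ended when only precursors with no UMI of Tyrobp were kept: the mean gap was then 6.30 points, higher in precursors in 4 of 7 libraries (exact permutation p = 0.219, range over the alternatives 0.0156 to 0.219). Tyrobp is a macrophage gene, and the precursors kept by that limit were fewer (341 of 1021 members). The limit was set on precursors only, so the shares among macrophages and microglia were unchanged. A shallow cell also meets a limit of no UMI more easily, and the cycling precursors were deeper than the non-cycling ones. The parts of depth and of macrophage RNA in the smaller gap were not tested.

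Expression was then compared between cycling and non-cycling precursors within the 6 injured libraries, each of which had at least 20 cells of both kinds. Counts were summed per library and kind, and the fit had the library as a block. Of 9546 genes tested, 4034 (42.3%) had an adjusted p under 0.05, 1890 (19.8%) higher and 2144 (22.5%) lower in cycling cells. Since the cells were sorted by their own transcripts, these calls describe the members and are no test independent of the rule. In what follows, "rose" and "fell" mean an adjusted p under 0.05 in this fit, and changes are log2 fold changes with their standard error. Between cells of 5000 to 20000 UMIs, where the depths are closer, only the 4 mild and moderate libraries could be fitted. In that fit 3066 of 9430 genes (32.5%) were called. It limited the depth and left out the severe libraries at once, and the parts of the 2 were not separated.

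Nearly all tested genes of the division machinery rose. All 52 tested genes of the DNA replication list and all 16 of the S phase repair list rose, with median log2 changes of 1.82 and 2.19, beside a median of -0.03 over all genes tested. Of 120 tested genes of the G2 to mitosis list, 119 rose with a median of 3.59, the exception being the citron kinase Cit (log2 change -0.18 ± 0.11). The largest rises among abundant genes were the linker histones Hist1h1b (5.66 ± 0.17) and Hist1h1d (5.06 ± 0.19), the ubiquitin-conjugating enzyme Ube2c (5.56 ± 0.11), the spindle proteins Nusap1 (5.44 ± 0.12) and Kif11 (5.14 ± 0.15), the kinases Plk1 (5.26 ± 0.16) and Aurkb (4.97 ± 0.13), and the motor Kif20a (4.93 ± 0.16). Ube2c lay between 422 and 806 CPM in cycling and between 7.19 and 14.96 CPM in non-cycling precursors of the injured libraries. In the sham libraries it was 568 and 539 CPM in the cycling cells and 0 and 6.57 CPM in the others, from 9 and 12 cycling cells. Together the cell cycle lists took 2.30% to 2.82% of the UMIs of cycling and 0.622% to 0.992% of those of non-cycling precursors in the injured libraries.

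The promoters of these genes are shown because the replication and mitosis genes moved as blocks and differ in letters near the start. The sequences are from RefSeq (GRCr8, another build than the Rnor_6.0 of the counts), 90 bases before to 30 after the annotated start, 5′ to 3′. The first 3 are the ones of the 8 largest rises that had an entry, and the other 3 are the most abundant replication genes in cycling cells whose stretch holds an E2F word. Capitals mark TTTGAA (the cell cycle homology region, CHR), CCAAT, and the E2F words TTTCCCGC, TTTCGCGC, TTTGCCGC and TTTGGCGC, each on either strand; in the last sequence the E2F word and CCAAT overlap.
Nusap1 (chr3:127057205-127057324, plus strand): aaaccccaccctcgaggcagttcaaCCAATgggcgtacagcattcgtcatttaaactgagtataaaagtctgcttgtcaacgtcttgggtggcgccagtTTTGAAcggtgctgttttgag
Plk1 (chr1:186147568-186147687, plus strand): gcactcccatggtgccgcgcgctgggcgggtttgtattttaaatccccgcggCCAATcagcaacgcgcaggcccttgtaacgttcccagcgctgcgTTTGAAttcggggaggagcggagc
Kif11 (chr1:244536777-244536896, plus strand): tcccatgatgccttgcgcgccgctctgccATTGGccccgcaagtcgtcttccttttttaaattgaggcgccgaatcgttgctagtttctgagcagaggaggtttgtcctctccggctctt
Lig1 (chr1:83243080-83243199, plus strand): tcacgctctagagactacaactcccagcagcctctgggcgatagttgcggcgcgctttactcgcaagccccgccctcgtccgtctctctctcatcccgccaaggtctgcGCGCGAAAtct
Rfc3 (chr12:5836478-5836597, plus strand): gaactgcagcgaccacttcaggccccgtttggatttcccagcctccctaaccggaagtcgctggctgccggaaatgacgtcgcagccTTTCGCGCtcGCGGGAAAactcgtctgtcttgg
Mcm7 (chr12:22163149-22163268, minus strand): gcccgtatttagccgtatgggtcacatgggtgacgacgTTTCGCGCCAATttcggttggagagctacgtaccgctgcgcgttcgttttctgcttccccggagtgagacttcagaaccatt

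Over windows of 300 bases (250 before to 50 after the start), TTTGAA was in 62 of 105 mitosis promoters (59.0%), in 8 of 46 replication promoters (17.4%) and in 17.97% of all 26717 promoters (chromosome 18 was left out). An E2F word was in 24 of 46 replication promoters (52.2%), in 4 of 105 mitosis promoters (3.81%) and in 2.29% of all promoters. CCAAT was in 61.9% of the mitosis, 60.9% of the replication and 37.7% of all promoters. The genes of precursor identity had TTTGAA in 5 and an E2F word in 2 of 32 promoters. A match of letters is a description and not a bound site.

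The regulators that start the cycle did not move as one. The cyclin D1 gene Ccnd1 (ENSRNOG00000020918), whose product drives G1 cells towards S phase, was 1598 ± 504 CPM in cycling and 1596 ± 492 CPM in non-cycling precursors (SD, n = 6; log2 change -0.01 ± 0.06, not called), and higher in cycling cells in 3 of 6 libraries. Its values in cycling cells were 1996 and 2040 CPM after mild, 1755 and 1844 after moderate, and 802 and 1154 after severe injury. Both severe values lay under those of the other injured libraries, and the same held in non-cycling cells. The comparison of severe with mild cycling precursors, given below, called none of the 14 tested genes of the G1 to S list, which holds Ccnd1. With library size scaling alone 4 of them were lower. The sham libraries had 2581 and 1140 CPM in cycling cells. Ccnd3 was not called either (0.01 ± 0.09), while Ccnd2 fell by 1.02 ± 0.13 on the log2 scale. The S phase cyclins Ccne1 and Ccne2 rose by 1.40 ± 0.16 and 1.59 ± 0.17, Cdk4 rose by 0.27 ± 0.07, and E2f7, a repressor among the E2F factors, rose by 3.15 ± 0.38 from a low level. Of 13 tested genes of the G1 to S list, 9 rose (69.2%) and 2 fell (15.4%), beside 19.8% and 22.5% of all genes tested. The second fall was Myc (-0.40 ± 0.09). Between 5000 and 20000 UMIs 6 of 13 rose and 2 fell, beside 16% and 16.5% of all genes in that fit. The list median was then 0.46 in place of 0.87. With no UMI of Tyrobp 4 of 9 rose and 2 fell, beside 15.8% and 18.7%.

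Among the inhibitors, the cyclin-dependent kinase inhibitor Cdkn1c (p57, ENSRNOG00000059500) fell most. It was 113 and 74.1 CPM in cycling precursors of the mild libraries, 69.9 and 53.6 after moderate injury, and 15.7 and 47.4 after severe injury. In non-cycling precursors it was 531 and 545, 371 and 363, and 22.5 and 124 CPM. Each library had less in its cycling cells, and the severe libraries were the lowest of the injured ones in both kinds of cell. The log2 change was -2.36 ± 0.13, the largest fall of this list. The sham libraries had 24.1 and 67.4 CPM in cycling and 350 and 337 CPM in non-cycling precursors.

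Cdkn2c (p18) rose instead (1.59 ± 0.10), as did the pocket protein gene Rbl1 (1.86 ± 0.23), and Cdkn2b fell by 0.85 ± 0.14 on the log2 scale. Cdkn1a (p21) was 116 ± 57.6 against 129 ± 53.4 CPM and Cdkn1b (p27) was 83.6 ± 22.0 against 86.6 ± 22.4 CPM, neither called. The antiproliferative Btg2 and the p53 target Ccng1 fell by 0.57 ± 0.11 and 0.45 ± 0.07. In all, 2 of 14 tested genes of the inhibitor list rose (14.3%) and 4 fell (28.6%), near the 19.8% and 22.5% of all genes tested.

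**Figure D3:**
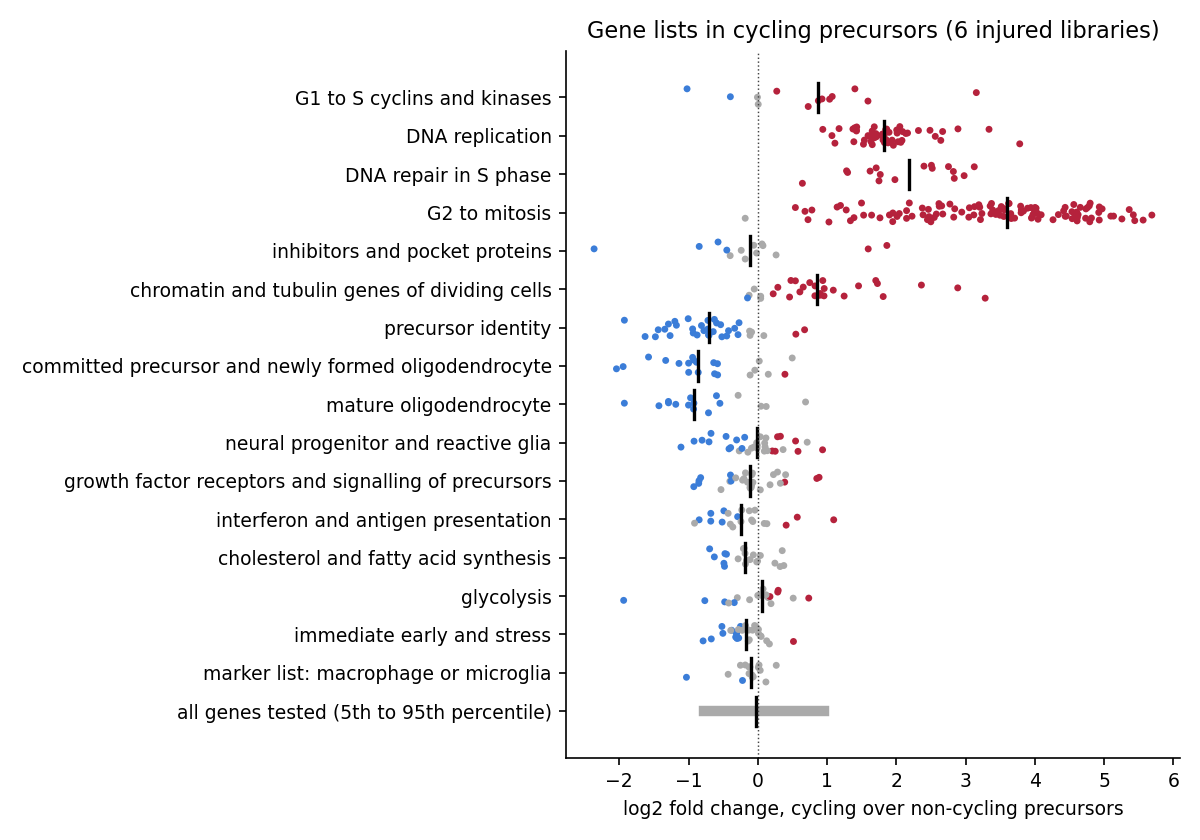
Log2 fold change of cycling over non-cycling precursors for each tested gene of each list (points; red rose, blue fell, grey not called), with the list median as a black bar and, at the bottom, the middle 90% of all genes tested. The mitosis list has its median at 3.59, while the precursor, committed and mature lists have theirs at -0.71, -0.86 and -0.92.

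Genes of the oligodendrocyte lineage were lower in cycling precursors. Of 35 tested precursor identity genes, 29 fell (82.9%) and 2 rose (5.71%), beside 22.5% and 19.8% of all genes tested, with a median of -0.71. The complement-like gene C1ql1 (ENSRNOG00000002963) was 479 and 532 CPM in cycling cells of the mild libraries, 198 and 233 after moderate injury, and 208 and 227 after severe injury, against 1389 and 1464, 505 and 599, and 556 and 626 CPM in non-cycling cells. It fell in every library, by 1.44 ± 0.05 on the log2 scale, and the mild libraries were the highest of the injured ones in both kinds of cell. The matrix proteoglycan Vcan (-0.93 ± 0.08), the lineage factor Sox10 (-0.60 ± 0.06) and Serpine2 (-0.27 ± 0.06) fell as well. Of the genes that chose the precursors, Olig1 averaged 739 ± 271 CPM in cycling and 1445 ± 535 in non-cycling cells, and Ptprz1 594 ± 72.0 and 778 ± 61.3.

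The rule asked at least 2 UMIs of Ptprz1 and of Olig1 and Olig2 from every cell, which a shallow cell meets only at a high level, and the non-cycling cells were the shallower ones. Between 5000 and 20000 UMIs, and so without the severe libraries, 22 of 37 precursor identity genes fell and 3 rose, with a median of -0.42. Over all genes in that fit 16.5% were lower and 16% higher. The part of this limit in the falls was not tested further.

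The platelet-derived growth factor receptor gene Pdgfra, through which precursors receive their main mitogen, was not called. It was 96.5 and 125 CPM in cycling precursors of the mild libraries, 129 and 169 after moderate injury, and 77.7 and 34.4 after severe injury, against 112 and 151, 123 and 167, and 79.7 and 37.6 CPM in non-cycling ones. The log2 change was -0.09 ± 0.07, and the 2 kinds of cell overlapped. Pdgfra was chosen after its values were seen.

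Genes of later stages were lower too. Of 21 tested genes of committed precursors and newly formed oligodendrocytes, 15 fell and 1 (Rap2a) rose, and of 16 tested mature oligodendrocyte genes 12 fell and none rose, shares of 71.4% and 75% lower beside 22.5% of all genes tested. The myelin regulatory factor Myrf, which switches on myelin genes, fell by 2.04 ± 0.16, Bmp4 by 1.94 ± 0.14, and Bcas1, a marker of early myelinating cells, by 1.14 ± 0.08. Bcas1 was 383 and 420 CPM in cycling cells of the mild libraries, 379 and 330 after moderate injury, and 181 and 253 after severe injury, against 798 and 1278, 803 and 721, and 482 and 380 CPM. The myelin enzyme Cnp averaged 898 ± 210 against 2079 ± 701 CPM (-1.18 ± 0.05). Between 5000 and 20000 UMIs 16 of 21 committed and 11 of 17 mature genes fell and none rose, beside 16.5% lower over all genes in that fit, and the median of the mature list was -0.69 in place of -0.92. The rule allowed at most 1 UMI of Mag and Mog together, which a deep cell meets only at a low level, and the cycling cells were the deeper ones. The part of this cap in the falls was not tested further.

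**Figure D4:**
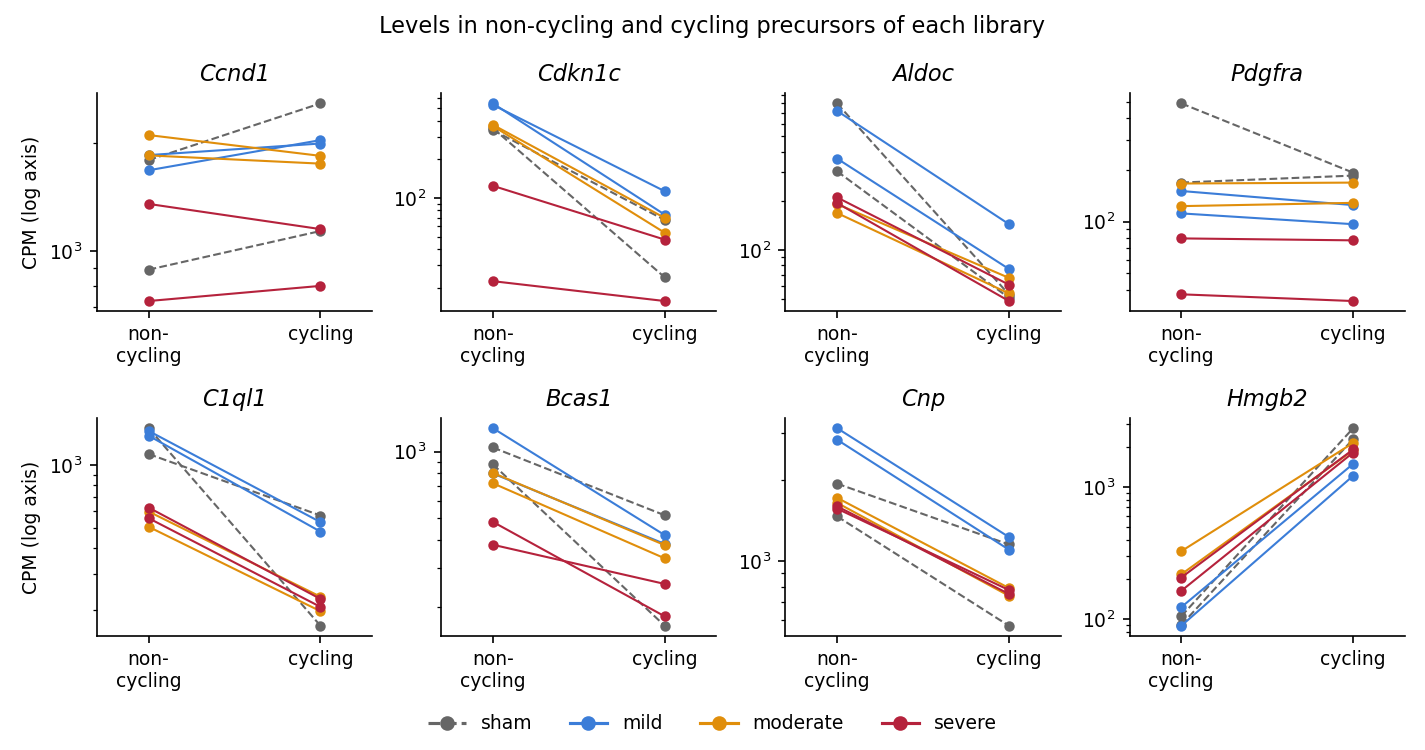
Levels in CPM (log axis) of 8 genes in non-cycling and cycling precursors, with a line for each library; sham lines are dashed and rest on 9 and 12 cycling cells. Cdkn1c, Aldoc, C1ql1, Bcas1 and Cnp are lower and Hmgb2 is higher in the cycling cells of all 8 libraries, while Ccnd1 and Pdgfra go either way.

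Outside the cell cycle and chromatin lists, the 12 largest rises among genes of at least 50 CPM, chosen to be higher in cycling cells of every library, included the Pcna-associated Pclaf (3.40 ± 0.10), Fam111a (3.31 ± 0.18), Cep89 (2.24 ± 0.12), Atad5 (2.16 ± 0.16), Rad18 (2.13 ± 0.12), Tcf19 (2.12 ± 0.10), Tedc1 (2.01 ± 0.11), Haus4 (1.94 ± 0.09), Nrm (1.80 ± 0.13) and Vrk1 (1.78 ± 0.14), while another 2 had only an identifier. Pclaf, Atad5 and Rad18 act at the replication fork, Haus4 is part of the augmin complex of the spindle, and Nrm is a protein of the inner nuclear membrane.

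Among the 12 largest falls chosen in the same way were C1qtnf5 (-2.03 ± 0.11), Mycl (-1.98 ± 0.12), Bmp4, the glycolytic enzyme Aldoc (-1.94 ± 0.09), Faim2 (-1.86 ± 0.10), the ion pump regulator Fxyd7 (-1.80 ± 0.15), Mxd4 (-1.78 ± 0.10), Tmem255b (-1.74 ± 0.11), Gpd1 (-1.65 ± 0.13) and the precursor factor Sox8 (-1.63 ± 0.15), with 1 further gene known only by an identifier. Mxd4, a Max partner that opposes Myc, was 31.9 ± 6.92 against 110 ± 37.0 CPM. Among Myc family genes Mycl and Myc thus both fell.

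Of 30 tested chromatin and tubulin genes used by dividing cells 25 rose (83.3%) and 1 fell (3.33%). Over all genes tested the shares were 19.8% and 22.5%. The chromatin protein gene Hmgb2 went from 188 ± 83.7 to 1753 ± 338 CPM (3.28 ± 0.09), and the tubulin regulator Stmn1 and the tubulins Tubb5 and Tuba1b rose by 0.96 ± 0.05, 0.90 ± 0.04 and 1.25 ± 0.05. The neuronal-type tubulin Tuba1a was not called (4315 ± 1018 against 4425 ± 810 CPM), and Tubb2b alone of this list fell (-0.15 on the log2 scale).

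Of 33 tested progenitor genes 7 rose (21.2%) and 11 fell (33.3%), beside 19.8% and 22.5% of all genes tested, with a median of -0.01. The intermediate filaments Nes (217 ± 45.9 against 146 ± 47.1 CPM) and Vim and the factors Sox2 (452 ± 126 against 380 ± 125 CPM) and Id1 rose by 0.55 ± 0.08, 0.21 ± 0.05, 0.25 ± 0.06 and 0.58 ± 0.13. The astrocytic filament Gfap fell by 1.11 ± 0.09, the lipid binding protein Fabp7 by 0.68 ± 0.07 and the Notch ligand Dll1 by 0.92 ± 0.16. Vim was not called between 5000 and 20000 UMIs (0.06), and S100a6, which rose by 0.94, was at -0.13 there and not called.

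Of 30 tested signalling genes 3 rose (Tnfrsf12a, Nrp1 and Etv5) and 6 fell, shares of 10% and 20% beside the 19.8% and 22.5% of all genes tested. Etv5, a transcription factor downstream of growth factor receptors, rose by 0.88 ± 0.13 (48.0 ± 19.2 against 24.7 ± 8.91 CPM), whereas Spry1, a feedback inhibitor of the same receptors, fell by 0.92 ± 0.06 (92.8 ± 24.5 against 174 ± 43.3 CPM). The neuregulin receptor Erbb3 and the receptor Lpar1 fell by 0.85 ± 0.09 and 0.85 ± 0.12. Etv1 and Dusp6 were not called (-0.11 ± 0.07 and -0.07 ± 0.07). Etv5 and Erbb3 were chosen after their values were seen.

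The remaining lists are to be read against the same 19.8% higher and 22.5% lower over all genes tested. In the interferon and antigen presentation list 3 of 21 genes rose and 6 fell, among them B2m (-0.29 ± 0.05); Ifitm3 rose by 1.10 but was at -0.31 and not called between 5000 and 20000 UMIs. In the cholesterol and fatty acid list 6 of 21 fell and none rose, with the desaturase Scd2 at -0.48 ± 0.06 and the synthase gene Hmgcs1 at -0.69 ± 0.14. In glycolysis 4 of 19 rose and 4 fell, 21.1% each and thus near those shares, with Pgk1 at 0.18 ± 0.05 and Aldoa at -0.34 ± 0.04. Immediate early and stress genes fell in 11 of 29 cases, with Fos at -0.50 ± 0.05, Jun at -0.38 ± 0.05 and Atf3 at -0.52 ± 0.08, and 1 (Fosl1) rose.

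Markers of other cell types were compared between the members and the non-cycling precursors. Of 16 tested macrophage or microglia markers 2 fell (Gpnmb and Apoe, 12.5%) and none rose, and the whole list of 19 genes summed to 1790 ± 1291 CPM in cycling and 2130 ± 1324 CPM in non-cycling precursors (SD, n = 6), against 55996 ± 8281 CPM in cycling macrophages and microglia. Its most abundant gene was Apoe in all 6. The sum was 1144 and 2156 CPM in cycling cells of the mild libraries, 3722 and 2661 after moderate injury, and 301 and 756 after severe injury, where 5 and 1 of the 19 genes were at 0. In sham it was 496 and 427 CPM. No tested neutrophil marker was called, and no lymphocyte or erythroid marker was abundant enough for the test. Among astrocyte markers 4 of 5 fell and Gja1 rose (0.83, but -0.12 and not called between 5000 and 20000 UMIs). Of 4 tested markers of the fibroblast list Col3a1 and Igfbp6 rose and Mgp fell. Against precursors of 0 to 2 UMIs of Mki67 and Top2a none of 5 was called. The whole fibroblast list summed to 344 ± 302 CPM in cycling and 458 ± 374 CPM in non-cycling precursors. In addition, 3 of 11 neuron, 1 of 1 ependymal and 2 of 4 Schwann cell markers fell, with the other 2 Schwann cell markers rising. The endothelial gene Esam rose (8.76 ± 5.04 against 2.35 ± 0.93 CPM).

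Cycling macrophages and microglia gave a second dividing cell type from the same libraries. Most genes differed between the 2 cell types (7259 of 10360 tested, 70.1%, in the fit across all genes, 3248 or 31.4% higher and 4011 or 38.7% lower in precursors). Scaling by library size alone moved the median of all genes from -0.09 to 0.47 and turned the split into 5980 higher and 2260 lower, so values are given relative to the main scaling. Among genes of the cell cycle lists with at least 50 CPM in the higher cell type, Ccnd1 was 1598 ± 504 CPM in precursors and 200 CPM in macrophages (log2 difference 2.47 ± 0.07, adjusted p = 2.16e-09, edgeR). Cdkn1c (4.26 ± 0.24), Cdkn2a (4.14 ± 0.16), Ckap2 (1.70 ± 0.10) and Diaph3 (1.59 ± 0.13) made up the other 4 of the 5 largest differences in that direction. Cdkn1c and Cdkn2a were at 2.40 ± 0.36 and 4.10 ± 1.31 CPM in macrophages, so the size of these 2 differences and their rank rest on a level near background. Cdkn2a, which encodes inhibitors of Cdk4 and of Mdm2, was 110 ± 38.7 CPM in cycling and 106 ± 48.1 CPM in non-cycling precursors.

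In the other direction, with the same limit of 50 CPM, stood Reep4 (29.2 CPM in precursors and 92.3 CPM in macrophages, -2.19 ± 0.08), Btg2 (-1.98 ± 0.24) and Btg1 (-1.42 ± 0.18). Tmpo (-0.47) and Incenp (-0.38) followed, but turned to 0.08 and 0.17 under scaling by library size alone and were not called there. Of 126 mitosis genes 82 were higher and 12 lower in precursors, with a median of 0.40, and of 52 replication genes 29 were higher and 4 lower, with a median of 0.34, beside 31.4% higher and 38.7% lower of all genes and their median of -0.09. Under scaling by library size alone the mitosis list had 111 higher and 2 lower with a median of 0.95 and the replication list 49 and 0 with a median of 0.89, beside the median of 0.47 over all genes.

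For the degree of injury, severe was compared with mild, the ends of the injury scale. Neither sham library held 20 cycling precursors, so the comparisons against sham were not run, and moderate injury was not tested against the other degrees. In the fit over the 6 injured libraries, 894 of 10185 genes (8.78%) differed between severe and mild, 460 (4.52%) higher and 434 (4.26%) lower in severe. In cycling macrophages and microglia of these libraries 656 of 11644 genes (5.63%) differed, 3.23% higher and 2.4% lower. In cycling precursors the count was 125 without mild replicate 1, 143 without mild replicate 2, 597 without severe replicate 1 and 489 without severe replicate 2. Library size scaling alone shifted the median of all genes from -0.03 to -0.34 and gave 250 higher and 1226 lower. The severe libraries had deeper cells and less mitochondrial RNA, as given above, and the part of these in the differences was not tested.

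Among genes of at least 50 CPM, most of the largest differences also appeared in macrophages and microglia. Rps19, a ribosomal protein gene, was 1944 and 1480 CPM in cycling precursors of the severe libraries against 60.7 and 59.4 after mild and 110 and 86.0 after moderate injury, and sham libraries had 188 and 219. The log2 difference between severe and mild was 5.13 in cycling precursors and 5.34 in cycling macrophages and microglia of the same libraries. Nhp2 (4.93 and 4.45) and Rps6 (4.61 and 4.39) followed the same order, and the other 2 of the 5 largest rises had only an identifier. Among the falls, Sumo4 was 17.8 and 4.79 CPM in the severe and 146 and 128 in the mild libraries (-3.69 in precursors and -3.47 in macrophages). Fosb (-2.84 and -1.21, adjusted p of the difference between the cell types 0.00317, edgeR) and the matrix protein Mgp (-2.71 and -2.09) were also among the 5 largest falls, with another 2 known only by an identifier. Ribosomal protein genes such as Rps19 and Rps6 are known for many pseudogene copies, and Sumo4 is close in sequence to Sumo2, so the counting could split reads among copies. The levels of these genes are therefore uncertain, and read sharing was not examined here. All 8 count tables name the same Cell Ranger version, but the severe libraries differ this far from the mild ones in both cell types, and an effect of severity on these genes and a difference in how those libraries were made or their reads counted cannot be told apart.

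The immediate early gene Fos was 3164 and 3698 CPM in cycling precursors of the mild libraries, 2565 and 2040 after moderate injury, and 609 and 721 after severe injury, and 299 and 994 in the sham ones. Severe libraries were below all other injured libraries and within the range of sham. The log2 difference between severe and mild was -2.06 ± 0.23 in precursors (adjusted p = 0.000649, edgeR) and -2.71 in macrophages. Egr1, chosen after its values were seen, gave -2.17 in precursors and -2.18 in macrophages. The list of immediate early and stress genes did not move one way: in precursors 7 of 31 were lower (22.6%) and 4 higher (12.9%), beside 4.26% and 4.52% of all genes tested, with a median of -0.15. The 4 higher ones were the heat shock genes Hspa1b (3.0 ± 0.41) and Hspb1 (1.23 ± 0.22), Gadd45b (1.31 ± 0.24) and Jund (1.02 ± 0.24). In macrophages 4 of 31 were lower (12.9%) and 9 higher (29.0%), beside 2.4% and 3.23% of all genes tested there.

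**Figure D5:**
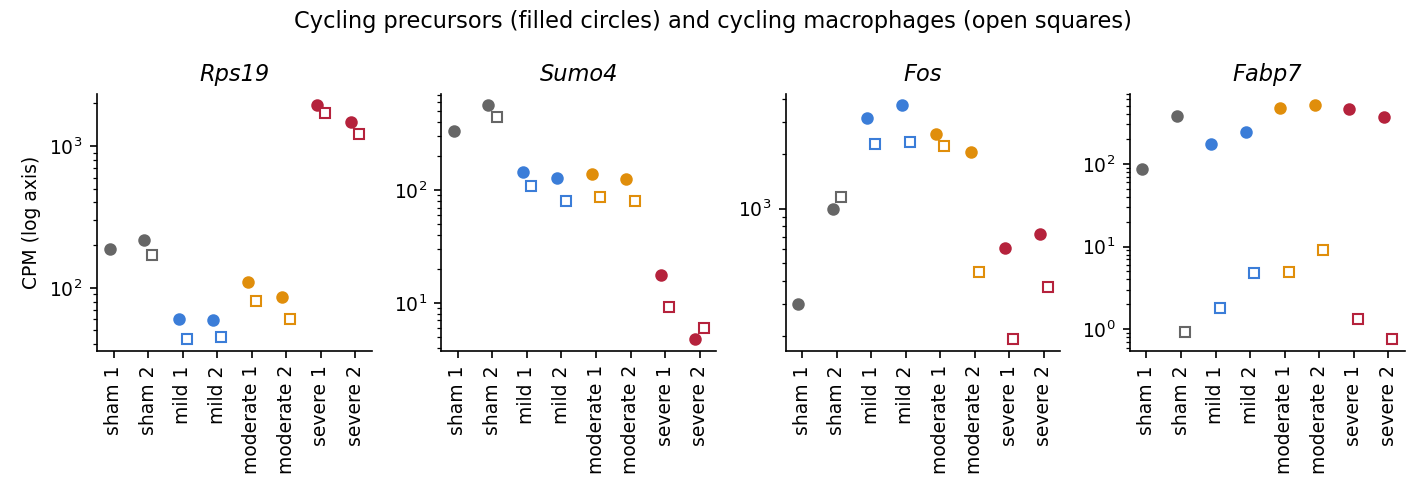
Levels in CPM (log axis) of 4 genes in cycling precursors (filled circles) and cycling macrophages and microglia (open squares) of each library. Rps19, Sumo4 and Fos move alike in both cell types of the severe libraries, whereas Fabp7 is at 364 to 464 CPM in severe precursors and below 10 CPM in all macrophages.

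The difference between the 2 cell types was tested directly, as severe against mild in precursors minus the same in macrophages and microglia, in a comparison added after the data were seen. It called 147 of 11902 genes (1.24%), 51 (0.428%) higher and 96 (0.807%) lower. It called 32 and 27 genes without severe replicate 1 or 2, and 289 and 305 without moderate replicate 1 or 2. Among the lower ones were macrophage genes such as Lyz2, Itgb2 and C1qb, which were scarce in precursors (98.6, 3.56 and 60.4 CPM on average). Of the precursor genes, Fabp7 was 464 and 364 CPM in cycling precursors of the severe libraries against 175 and 241 in the mild ones (1.29 ± 0.22). In macrophages it was at 1.32 and 0.76 CPM in severe and 1.80 and 4.83 in mild libraries, too little to read a change or a difference between the cell types from. The endothelin receptor gene Ednrb was 22.0 and 26.5 CPM in severe against 60.7 and 88.8 in mild precursors (-1.29 ± 0.26; -0.11 in macrophages; adjusted p of the difference 0.0417, edgeR). In cycling macrophages and microglia the 41 measured genes of the precursor identity list, Ednrb among them, together summed to 121 ± 43.4 CPM (SD, n = 6). No absence of change in macrophages is therefore read from the -0.11. The moderate libraries had 471 and 510 CPM of Fabp7 and 35.7 and 37.7 CPM of Ednrb in cycling precursors, near the severe values. Both genes were chosen after their values were seen.

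Cell cycle genes differed between severe and mild cycling precursors in both directions. In the mitosis list 8 of 126 genes were higher (6.35%) and 6 lower (4.76%), with a median of -0.02, and in the replication list 3 of 52 were higher (Dut, Rrm2 and Tipin) and 3 lower (Mcm5, Mcm6 and Pole), 5.77% each, with a median of 0.04. These shares are near the 4.52% higher and 4.26% lower of all genes tested, whose median was -0.03. With library size scaling alone, 2 mitosis genes were higher and 21 lower, and 1 replication gene higher and 9 lower, with medians of -0.32 and -0.26 beside -0.34 over all genes. The chromatin and tubulin genes of dividing cells had 6 of 31 higher (19.4%) and 1 lower, with a median of 0.50, led by Hmgb3 (2.67 ± 0.47) and Tuba1c (2.59 ± 0.20). With library size scaling alone, 3 of them were higher and 4 lower, with a median of 0.20. In macrophages 4 of 32 were higher (12.5%) and 1 lower (3.1%), beside 3.23% and 2.4% of all genes tested in macrophages. The largest log2 change of this list there was 2.70. In the direct comparison of the cell types no tested gene of the list was higher in precursors by more than 0.73. The largest rises were thus not particular to precursors. As for Rps19, severity and a difference in making or counting the libraries cannot be told apart for them. None of the 14 tested genes of the G1 to S list was called (4 lower with library size scaling alone, 1 in each direction with DESeq2). Of 38 precursor identity genes, 7 were lower (18.4%) and none higher in severe, with a median of -0.69, C1ql1 at -0.91 ± 0.19 among them. With library size scaling alone, 14 were lower and none higher, with a median of -0.99. In cycling macrophages C1ql1 stayed between 0 and 3.03 CPM, so no change is read there. Of 17 macrophage or microglia markers 6 were lower (35.3%) and none higher, with a median of -1.64. With library size scaling alone, 11 of these markers were lower, with a median of -1.95. The part of this macrophage or microglia RNA in other differences was not tested.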

How the data were processed

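Per the labels and the matrix headers, the authors made the deposited counts with Cell Ranger (5.0.1 in the headers of all 8 tables, whereas the study's methods name a later version) on Rnor_6.0. The values are raw UMI counts per gene and cell for 32623 genes. Cells were chosen as in the report, with macrophages and microglia taken at 5 or more UMIs of Tyrobp and of C1qa, C1qb and C1qc together, no UMI of Ptprz1, Olig1, Olig2, Cd3e or Cd3g, and at most 5 of S100a8 and S100a9. Doublets stayed in, apart from an alternative without the 7.7% of cells with the highest Scrublet score (scanpy 1.11.5), which removed 11 members.

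Counts were summed per library and kind (at least 20 cells) and tested with edgeR 4.0.16 (TMM, filterByExpr, quasi-likelihood F test, Benjamini-Hochberg), with the library as a block within libraries. The 8 genes of the rule were not tested. DESeq2 1.42.0 was an alternative, and the fits were checked on simulated counts. Libraries held 31482153 to 131045446 UMIs.

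Members and lists were chosen with earlier results of these data known. Named were the 8 largest rises, the 12 largest rises and falls outside the cell cycle lists (at least 50 CPM, same direction in every library), the 4 most abundant genes of each list, 5 per direction in other comparisons and 7 cyclins and inhibitors. Further genes named inside a list were picked after their values were seen. Some genes named by these rules are not reported here.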

Additional observations from a re-analysis of the deposited data

Results flagged for a closer look

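The change from mild to severe injury differed between cycling precursors and cycling macrophages and microglia in 147 genes, which is a difference between groups of cells under the same contrast (edgeR, 51 higher and 96 lower; 99 genes with DESeq2).

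Cells outside the members also carried cycling transcripts. Of 808 precursors that met every other criterion but had more than 2 UMIs of Tyrobp, 447 (55.3%) had 3 or more UMIs of Mki67 and Top2a. The share was 22.2% (2 of 9) and 18.2% (2 of 11) in the sham libraries, 60.9% and 46.3% after mild, 61.1% and 57.5% after moderate, and 75.0% (3 of 4) and 46.3% after severe injury. It was above the share among the precursors kept in each of the 8 libraries. The cause was not tested.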

How the results depend on the processing

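The sham libraries stayed below the injured ones under every limit on UMIs, thinning, doublets, Tyrobp and mitochondrial share tried. Over all libraries, where sham and injured form separate clusters, the rank coefficient against drop height was 0.586 (exact permutation p = 0.153) and came to 0.781 (p = 0.0349) with no Tyrobp UMI; Pearson's test was past 0.05 without that limit. With no Tyrobp UMI, the gap to macrophages was 6.30 points (exact permutation p = 0.219), and 2261 genes differed between cycling and non-cycling precursors (4034 otherwise, 3368 to 4031 without 1 library). Between severe and mild, 1476 genes were called with library size only, 1510 with no filter and 553 with a replicate block (125 to 1016 without 1 library). The difference between the cell types gave 542 with no filter and 261 with a replicate block (27 to 305 without 1 library). Replicate numbers were not used to pair libraries in the main fits. Correlations of same-numbered deviations were 0.026 for mild with moderate, 0.058 for mild with severe and -0.213 for moderate with severe.

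Of 191 named genes under 15 alternatives between cycling and non-cycling precursors (2815 values), 2718 kept direction and call, 75 lost and 19 gained it, and 3 turned, all between 5000 and 20000 UMIs, to -0.12 (Gja1), -0.13 (S100a6) and -0.31 (Ifitm3). Between severe and mild the named genes held less well: of 2334 values for 195 genes, 57 of them called, 2060 kept direction and call, 154 lost and 120 gained it. Tmpo and Incenp against macrophages turned to 0.083 and 0.17 with library size only. Sham rests on 9 and 12 cycling precursors, severe replicate 1 on 35. The causes were not tested.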
